A study of Homo sapiens with 10 samples.

Results

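The MAGEA genes are a family of cancer-testis antigen genes on the long arm of the X chromosome. The 10 members taken here, MAGEA1, MAGEA2, MAGEA3, MAGEA4, MAGEA6, MAGEA8, MAGEA9, MAGEA10, MAGEA11 and MAGEA12, were listed by name and were found by symbol among the 58884 genes of the count tables. Their RNA was sequenced from HCT116, a cell line of human colorectal carcinoma, and from its derivative DNMT1 KO, in which the gene that encodes the maintenance DNA methyltransferase was targeted. The derivative is described in the study's text as a hypomorph that retains a shortened DNMT1 protein, and it is a single established line, so a difference between the groups is a difference between 2 cell lines. Both lines were grown in the same medium, and the labels name no drug treatment. The 6 HCT116 libraries are replicates 1, 2, 3, 7, 8 and 9 and carry the genotype label WT, and the 4 DNMT1 KO libraries are replicates 1 to 4. Batch 1 holds replicate 1 of each group and batch 2 holds replicates 2 and 3 of each group, whereas DNMT1 KO replicate 4 is alone in batch 3 and batch 4 consists of HCT116 replicates 7, 8 and 9. The study's text describes the replicates of each line as independent cultures.

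MAGE proteins share a conserved domain, the MAGE homology domain, through which many of them bind E3 ubiquitin ligases and alter which substrates these ligases modify. The MAGEA genes are normally expressed in male germ cells and are silent in most other adult tissues, where their promoters carry DNA methylation. Many tumours and cell lines express some of them again, and their peptides have been studied as targets for immunotherapy.

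Several members are near-identical copies, so their sequences decide what the counts can show. The coding sequences of MAGEA3 and MAGEA6 are both 942 bases long in the GENCODE annotation of hg38 and differ at 18 of 942 bases (98.1% identity). The 60 coding bases from position 573 to 632 hold 4 of these differences, the most of any 60-base stretch, and are shown because reads over them tell the copies apart. They lie in the coding exon of each gene, at chrX:152701405-152701464 on the plus strand for MAGEA3 and at chrX:152767019-152767078 on the minus strand for MAGEA6 (hg38). Capitals mark the bases that differ, which are G595A, C601T, G613A and G632A with the MAGEA3 base first and positions counted from the first base of the start codon.
MAGEA3 coding bases: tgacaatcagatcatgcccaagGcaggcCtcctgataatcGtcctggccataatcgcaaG
MAGEA6 coding bases: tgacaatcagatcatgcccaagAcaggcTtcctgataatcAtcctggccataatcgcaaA

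The bases upstream of the starts of the same pair were also alike. The windows below come from the RefSeq promoter table on hg38. Each ends before the RefSeq start, or before the counted or annotated exon where that begins further upstream. They are chrX:152698544-152698766 on the plus strand for MAGEA3, chrX:152769748-152769939 on the minus strand for MAGEA6 and chrX:151912224-151912473 on the plus strand for MAGEA4. MAGEA4 is shown as the member with the largest fitted change, at the most upstream of the 5 starts the table lists for it. Capitals mark CG dinucleotides and the letters CCGGAA or GGGCGG on either strand. CCGGAA contains the core letters of ETS-factor motifs and GGGCGG is the core of the GC box bound by SP1, whose letters include a CG dinucleotide.
MAGEA3 upstream bases: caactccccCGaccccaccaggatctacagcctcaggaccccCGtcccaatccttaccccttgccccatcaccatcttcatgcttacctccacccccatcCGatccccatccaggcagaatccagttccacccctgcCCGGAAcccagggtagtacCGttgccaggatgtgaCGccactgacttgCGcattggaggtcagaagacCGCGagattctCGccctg
MAGEA6 upstream bases: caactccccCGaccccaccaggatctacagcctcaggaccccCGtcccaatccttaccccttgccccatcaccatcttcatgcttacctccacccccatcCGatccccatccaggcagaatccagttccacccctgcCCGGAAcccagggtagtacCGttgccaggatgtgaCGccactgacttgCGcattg
MAGEA4 upstream bases: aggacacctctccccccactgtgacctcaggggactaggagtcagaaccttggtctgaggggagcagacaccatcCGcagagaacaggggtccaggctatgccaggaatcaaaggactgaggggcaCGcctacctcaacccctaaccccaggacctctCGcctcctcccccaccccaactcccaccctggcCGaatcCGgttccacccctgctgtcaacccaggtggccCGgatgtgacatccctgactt

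The 192 bases shown for MAGEA6 were identical to the first 192 bases shown for MAGEA3. Both contain 1 CCGGAA and no GGGCGG, and the MAGEA4 window shown contains neither string of letters. Each MAGEA4 window further downstream had 1 GGGCGG and no CCGGAA. Only these exact letters were searched, so other forms of an ETS motif were not counted. Over the 250 bases before each listed start, MAGEA3 and MAGEA6 each had 15 CG dinucleotides. That number was reached by 42.9% of the 35114 promoters listed. From the most upstream start on, the MAGEA4 windows had 6, 7, 11, 12 and 14, and the MAGEA12 windows had 5 and 13. Exon bases within these windows were 27 for MAGEA3, 58 for MAGEA6 and 105 for the MAGEA12 window with 13. They were not counted in the MAGEA4 windows further downstream or in the MAGEA11 window, whose starts lie inside the annotated gene. MAGEA11 had 18 CG dinucleotides and 4 GGGCGG matches. CCGGAA was present in 14.5% and GGGCGG in 42.6% of all promoters of that length. A promoter was listed for 8 of the 10 members, not for MAGEA1 or MAGEA10. A match of letters is a description and not a measured binding site, and DNA methylation was not measured in these files.

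How far reads can be assigned to each member was computed as the share of 50-base windows of its counted exons, 50 bases being the read length, that occur once in the hg38 chromosomes. This share was 100% for MAGEA1, 99.4% for MAGEA8, 96.2% for MAGEA11, 95.2% for MAGEA10, 85.0% for MAGEA12 and 72.4% for MAGEA4. It was 43.5% for MAGEA3 and 39.9% for MAGEA6, since 54.8% of the MAGEA3 windows also occur in MAGEA6. It was 6.18% for MAGEA9, whose windows recur in MAGEA9B at 93.4%, and 0% for MAGEA2, whose windows all recur in MAGEA2B. Reads that match more than 1 place receive a low mapping quality and were removed by the authors' filter, so the counts of MAGEA3, MAGEA6 and MAGEA9 rest on part of each gene and those of MAGEA2 on none of it. Sequence of these cell lines was not read here, so differences between their copies and hg38 are not included.

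**Figure D1:**
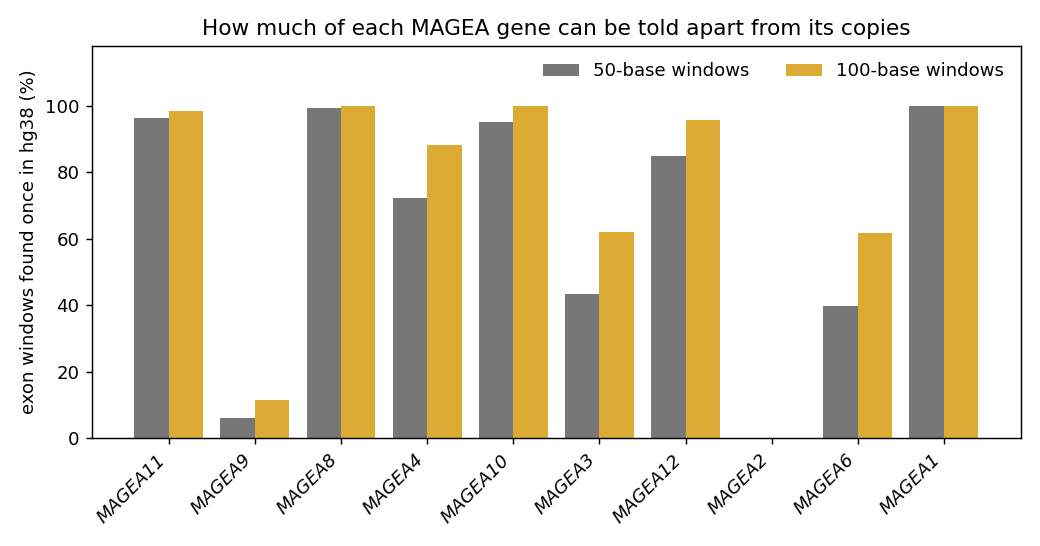
The share of exon windows that occur once in hg38 (y axis, percent) for each MAGEA gene in chromosome order (x axis), for windows of 50 bases (grey) and 100 bases (yellow). MAGEA2 has no such window at either length, MAGEA9 has 6.18% and 11.4%, and MAGEA3 and MAGEA6 rise from 43.5% and 39.9% to 62.0% and 61.8% with the longer window.

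Across the series, the HCT116 libraries held 35418732 to 85991812 counts each and the DNMT1 KO libraries 26700853 to 55732013. Low counts of 1 to 10 were even in 64.4 to 70.0% of genes for 9 libraries but in 39.9% for DNMT1 KO replicate 4, so counting intervals and floors, which treat each count as independent and cover counting error only, are too narrow if counts come in mate pairs. The targeted gene DNMT1 (ENSG00000130816) had a mean CPM, the counts scaled to a common total by TMM factors, of 153 ± 64.2 over 6 HCT116 libraries and of 19.5 ± 3.68 over 4 DNMT1 KO libraries (SD), a log2 fold change of -2.97 (SE 0.33, adjusted p = 1.74e-05 by edgeR's quasi-likelihood test). Bulk RNA cannot tell more expressing cells from more RNA per cell.

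The question put to these genes was which members differ in RNA level between DNMT1 KO and HCT116 cells. A gene was called at a Benjamini-Hochberg adjusted p under 0.05 over the 19279 genes tested, with a log2 fold change above 1 or below -1. Of the 10 members, 8 passed the filter on low counts, and 7 of these (MAGEA1, MAGEA4, MAGEA6, MAGEA8, MAGEA10, MAGEA11 and MAGEA12) rose in DNMT1 KO cells while MAGEA3 fell. Over all genes tested, 7.42% were called higher and 6.49% lower in DNMT1 KO. In 6 of the members that rose, all but MAGEA8, every DNMT1 KO library lay above every HCT116 library, against 8.40% of all genes tested, and MAGEA3 lay below in every DNMT1 KO library, against 6.79%. Members at or near 0 in HCT116 passed the filter through their DNMT1 KO counts, so a tested member that is low in HCT116 had to be higher in DNMT1 KO. MAGEA9 had too few counts to be tested and MAGEA2 had no count in any library.

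**Figure D2:**
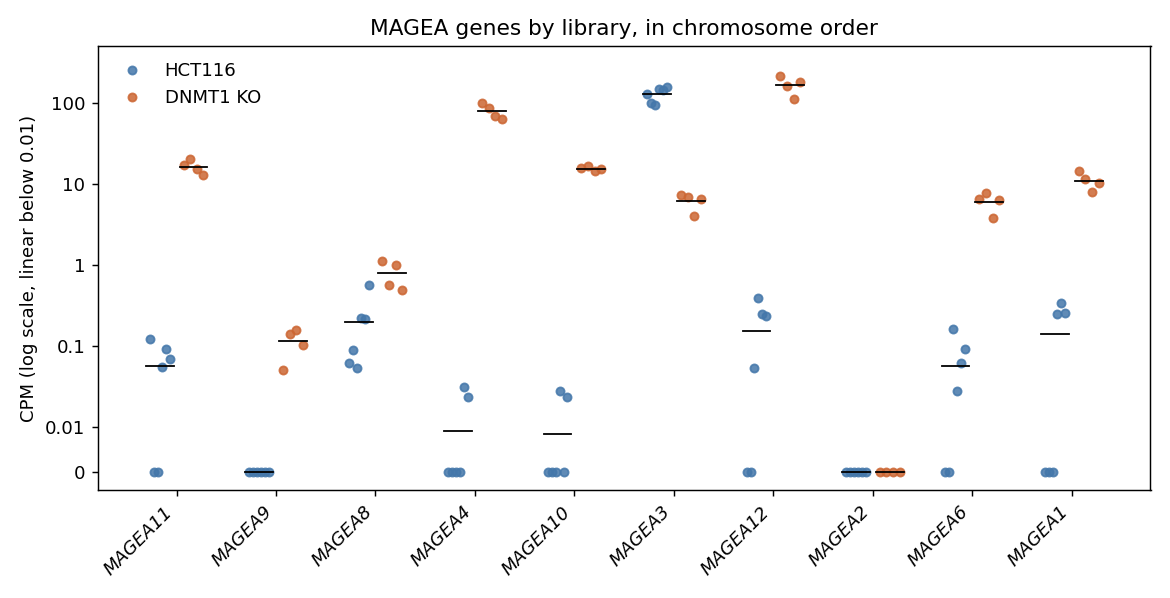
CPM (y axis, log scale that is linear below 0.01) of each MAGEA gene (x axis, in chromosome order) in 6 HCT116 libraries (blue points) and 4 DNMT1 KO libraries (orange points), with black lines at group means. MAGEA3 is the 1 member above 1 CPM in HCT116, where it reaches 154 CPM, and MAGEA12 and MAGEA4 are the highest in DNMT1 KO, while the points of the groups overlap for MAGEA8.

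MAGEA3 and MAGEA6 moved in opposite directions. Their proteins bind the E3 ubiquitin ligase TRIM28 and are known to direct it to the energy sensor kinase AMPK. MAGEA3 (ENSG00000221867, chrX:152698767-152702347, plus strand) was at 92.2 CPM in the lowest HCT116 library, at a median of 137 CPM and at 154 CPM in the highest. In DNMT1 KO replicates 1 to 4 it was at 7.32, 6.90, 4.03 and 6.43 CPM. Every DNMT1 KO library was thus far below every HCT116 library. Within HCT116, replicates 1, 2 and 3 were at 129, 99.5 and 92.2 CPM, and replicates 7, 8 and 9 of batch 4 were higher, at 149, 145 and 154 CPM. The log2 fold change of MAGEA3 was -4.38 (SE 0.29, edgeR adjusted p = 1.36e-07), with log2 ratios of -4.14 in batch 1 and -4.13 in batch 2 taken alone.

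MAGEA6 (ENSG00000197172, chrX:152766136-152769716, minus strand) was at 0 CPM in HCT116 replicates 1 and 2, with a median of 0.0449 and a highest value of 0.160 CPM. The 4 DNMT1 KO libraries, in replicate order, were at 6.47, 7.71, 3.75 and 6.22 CPM. The groups did not overlap, and DNMT1 KO replicate 3 was the lowest of its group for MAGEA6 as for MAGEA3. This gave a log2 fold change of 6.64 (SE 0.62, edgeR adjusted p = 2.97e-06). The ratio of pooled counts, each scaled by the pooled total of its group, was 99.1 (95% counting interval 63.8 to 163). Ratios given with a counting interval weight deep libraries more and can differ from a ratio of mean CPM.

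The counts of the pair show how well they were kept apart. In HCT116, 45369 counts were assigned to MAGEA3 and 20 to MAGEA6, and MAGEA3 took 99.8 to 100% of the pair's counts in each library. In DNMT1 KO, 1117 counts were assigned to MAGEA3 and 1105 to MAGEA6, and the MAGEA3 share was 47.2 to 53.1%. Few reads of MAGEA3 were therefore assigned to MAGEA6 in HCT116, while the assignment in the other direction was not tested, because no library expressed MAGEA6 without MAGEA3. When the pair was summed into 1 feature, its level went from 128 ± 26.5 CPM (HCT116, SD, n = 6) to 12.2 ± 3.06 CPM (DNMT1 KO, SD, n = 4), with a log2 fold change of -3.39 (SE 0.28, edgeR adjusted p = 8.49e-07).

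MAGEA12 and MAGEA4 reached the highest levels in DNMT1 KO cells. MAGEA12 (ENSG00000213401, chrX:152733757-152737669, plus strand), whose coding sequence is 92.1% identical to that of MAGEA3, was at 0 CPM in the lowest HCT116 library, at a median of 0.143 CPM and at 0.390 CPM in the highest. Replicates 1 to 4 of DNMT1 KO were at 211, 159, 110.0 and 178 CPM. Every DNMT1 KO library was far above every HCT116 library. MAGEA12 had a log2 fold change of 9.85 (SE 0.67, edgeR adjusted p = 1.59e-07), with a ratio of 797 (95% counting interval 627 to 1031).

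MAGEA4 (ENSG00000147381, chrX:151912495-151925171, plus strand), whose protein binds the oncoprotein gankyrin and the ubiquitin ligase RAD18, had 4 counts in all HCT116 libraries together, 2 each in replicates 8 and 9. Its HCT116 levels therefore ran from 0 to 0.0310 CPM with a median of 0 CPM. In DNMT1 KO replicates 1 to 4 it was at 98.3, 86.5, 68.2 and 62.6 CPM, again with no overlap. The log2 fold change of MAGEA4 was 12.46 (SE 0.48, edgeR adjusted p = 2.56e-09), and the ratio was 6661 with a wide counting interval of 2601 to 24448. MAGEA4 shares 172 exon bases with MAGEA4-AS1 on the opposite strand, which had 0 counts in HCT116 and 65 in DNMT1 KO, and no strand option is named for the counting.

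MAGEA11, MAGEA10 and MAGEA1 rose to intermediate levels. MAGEA11 (ENSG00000185247, chrX:149688228-149717268, plus strand), whose protein is a coregulator of the androgen receptor, ran from 0 to 0.124 CPM in HCT116 with a median of 0.0627 CPM. The 4 DNMT1 KO libraries, in replicate order, were at 16.9, 19.9, 15.4 and 12.9 CPM. No DNMT1 KO library came near an HCT116 library. MAGEA11 therefore had a fitted log2 fold change of 8.07 (SE 0.53, edgeR adjusted p = 1.35e-07), with a ratio of 281 (95% counting interval 182 to 461).

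MAGEA10 (ENSG00000124260, chrX:152133310-152138578, minus strand) had 4 counts in HCT116, 2 each in replicates 7 and 9, and ran from 0 to 0.0279 CPM with a median of 0 CPM. Replicates 1 to 4 of DNMT1 KO were at 15.5, 16.4, 14.4 and 15.3 CPM, and these 4 values had an SD of 0.825 CPM. The groups were fully separate. MAGEA10 had a fitted log2 fold change of 10.12 (SE 0.51, edgeR adjusted p = 1.73e-08), with a ratio of 1292 (95% counting interval 504 to 4744). It shares 469 exon bases with ENSG00000266560 on the same strand, which had 0 counts in HCT116 and 17 in DNMT1 KO.

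MAGEA1 (ENSG00000198681, chrX:153179284-153183880, plus strand), whose protein is known to act as a transcriptional repressor through SNW1 and HDAC1, was at 0 CPM in HCT116 replicates 1, 2 and 3 and at 0.251, 0.341 and 0.256 CPM in replicates 7, 8 and 9. In DNMT1 KO replicates 1 to 4 it was at 14.3, 11.3, 7.94 and 10.3 CPM. All DNMT1 KO libraries were above all HCT116 libraries, and within HCT116 the batch 4 libraries were the ones with counts. The log2 fold change of MAGEA1 was 6.09 (SE 0.76, edgeR adjusted p = 4.38e-05), with a ratio of 57.8 (95% counting interval 44.9 to 75.7). In batches 1 and 2 alone, with batch as a term, the fitted value was 11.96 (edgeR adjusted p = 0.000149), which rests on HCT116 libraries without a count of MAGEA1.

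MAGEA12 and MAGEA1 had the same split within HCT116. MAGEA12 had 28, 16 and 20 counts in HCT116 replicates 7, 8 and 9, against 0, 0 and 2 in replicates 1, 2 and 3. MAGEA1 had 18, 22 and 22 counts in the same 3 libraries, and MAGEA8 had 16, 14 and 48 there against 2, 4 and 2 in replicates 1, 2 and 3. MAGEA4 and MAGEA10, which in DNMT1 KO had more counts than MAGEA1, each had 0 to 2 counts per library in batch 4. The batch 4 libraries are also the deepest, at 70201678 to 85991812 counts. The part of batch in these low levels was not tested, and batch 4 holds HCT116 libraries alone.

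MAGEA8, MAGEA9 and MAGEA2 had the lowest counts of the family in DNMT1 KO, whereas in HCT116 the 86 counts of MAGEA8 were second to those of MAGEA3. MAGEA8 (ENSG00000156009, chrX:149881141-149885835, plus strand) was at 0.0535 CPM in the lowest HCT116 library, at a median of 0.154 CPM and at 0.558 CPM in the highest, replicate 9. The 4 DNMT1 KO libraries, in replicate order, were at 1.11, 0.569, 0.984 and 0.487 CPM, so that replicate 4 lay below HCT116 replicate 9. The log2 fold change of MAGEA8 was 1.89 (SE 0.59, edgeR adjusted p = 0.0422). The call was lost on leaving out any single library but HCT116 replicate 9, with log2 fold changes of 1.70 to 2.06 and edgeR adjusted p-values of 0.0521 to 0.131, and without HCT116 replicate 9 the log2 fold change was 2.51 (edgeR adjusted p = 0.00479). Taken alone, batch 1 gave a log2 ratio of 4.17 and batch 2 one of 3.43. With batch as a term the MAGEA8 value was 3.60 over all libraries (edgeR adjusted p = 0.0017) and over batches 1 and 2 (edgeR adjusted p = 0.00481). Batches 3 and 4 each hold 1 group alone. Both fits therefore take the difference from batches 1 and 2 and are not separate results.

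MAGEA9 (ENSG00000123584, chrX:149781930-149787737, plus strand) had no count in any HCT116 library. In DNMT1 KO replicates 1 to 4 it had 2, 8, 10 and 3 counts, which is 0.0505, 0.142, 0.159 and 0.104 CPM. Against a floor of 3 counts over the HCT116 group, it was at least 13.7-fold higher in DNMT1 KO, but it did not pass the filter and has no test. Its copy MAGEA9B had 0 counts in HCT116 and 11 in DNMT1 KO. MAGEA2 (ENSG00000268606, chrX:152749863-152753884, minus strand) and MAGEA2B had 0 counts in all 10 libraries, and since no 50-base window of MAGEA2 is its own, this 0 does not measure its expression.

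**Figure D3:**
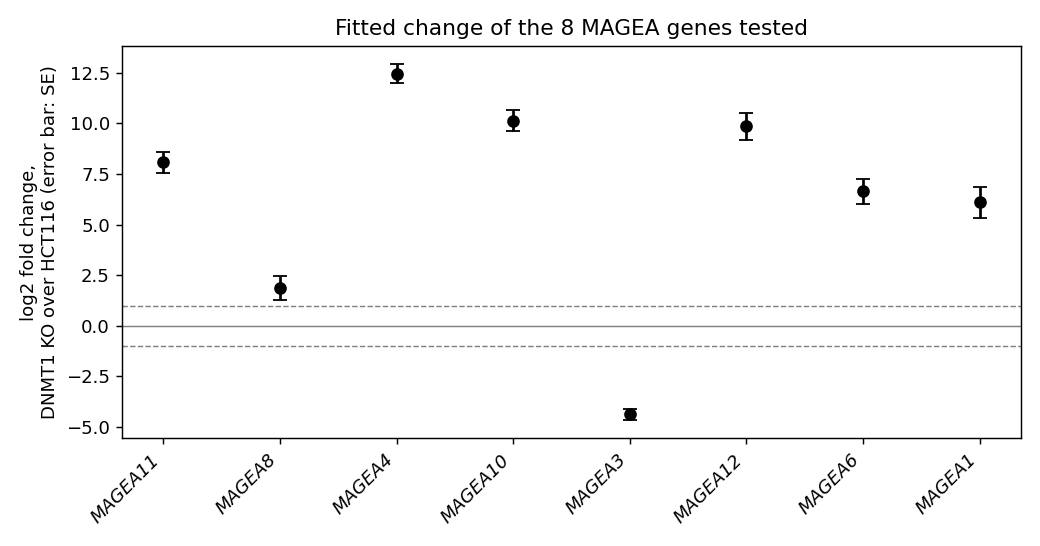
Log2 fold change of DNMT1 KO over HCT116 (y axis) fitted by edgeR for the 8 MAGEA genes tested (x axis, in chromosome order), with bars of 1 SE, a solid line at 0 and dashed lines at the limits of 1 and -1. MAGEA4 is highest at 12.46, MAGEA8 lies nearest to the limit at 1.89, and MAGEA3 alone lies below 0, at -4.38.

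The make-up of MAGEA RNA differed between the lines. The summed level of the 10 members was 129 ± 27.0 CPM over the HCT116 libraries (SD, n = 6) and 299 ± 60.1 CPM over those of DNMT1 KO (SD, n = 4), with ranges of 92.5 to 155 and 225 to 371 CPM that did not overlap. These sums hold only reads that could be assigned, and MAGEA2 adds none. The share of 50-base exon windows that occur once was 43.5% for MAGEA3, 85.0% for MAGEA12 and 72.4% for MAGEA4. The sums therefore do not compare total MAGEA RNA between the lines. In HCT116, MAGEA3 made up 99.2 to 99.9% of the members' counts in each library. In DNMT1 KO, MAGEA12 made up 48.9 to 60.9%, MAGEA4 21.4 to 30.3% and MAGEA3 1.79 to 2.24%. Between 2 and 8 members had a count in each HCT116 library, whereas 9 had one in each DNMT1 KO library.

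**Figure D4:**
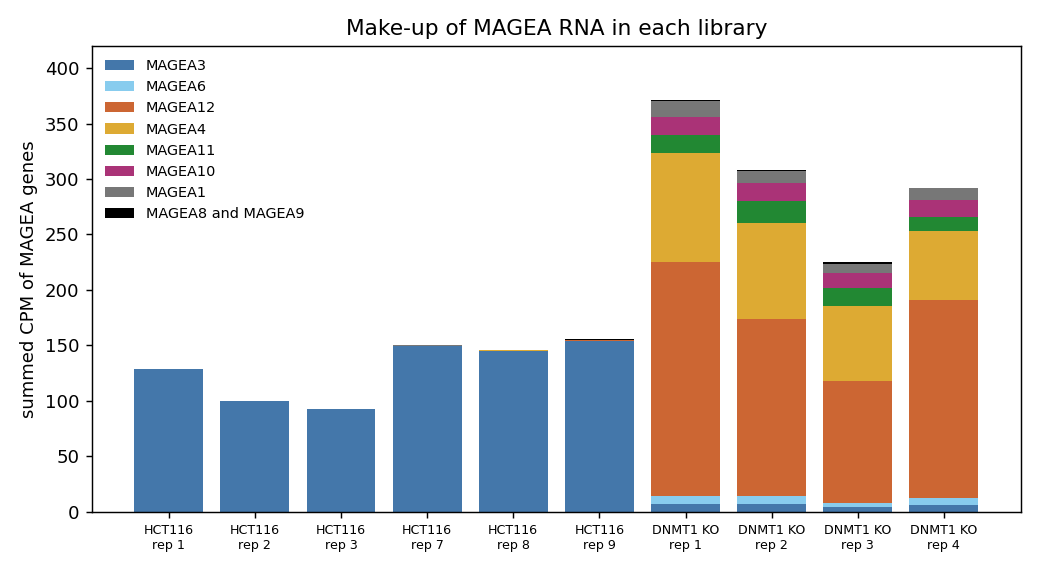
Summed CPM of the MAGEA genes (y axis) in each library (x axis), with the part of each gene as a coloured segment. Only reads that could be assigned are counted, so bar heights do not compare total MAGEA RNA. The 6 HCT116 bars, at 92.5 to 155 CPM, are almost wholly MAGEA3, and the 4 DNMT1 KO bars, at 225 to 371 CPM, consist mainly of MAGEA12 and MAGEA4.

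To set members side by side, CPM was divided by the kilobases of 50-base windows that occur once, a stand-in for the length that can be assigned. Read pairs span more than 50 bases, so these levels and the order of close members depend on the window length. MAGEA3 has 707 such windows of 50 bases and 937 of 100 bases, MAGEA6 665 and 934, and MAGEA1 1564 and 1457. On this scale the level in DNMT1 KO was 109 ± 28.1 CPM per kb for MAGEA12 and 43.5 ± 9.09 for MAGEA4 (SD, n = 4), and their ranges did not overlap. MAGEA6 followed at 9.08 ± 2.50, MAGEA3 at 8.73 ± 2.08, MAGEA1 at 7.01 ± 1.68, MAGEA10 at 5.98 ± 0.321 and MAGEA11 at 5.42 ± 0.984 CPM per kb, and the ranges of these 5 overlapped. MAGEA9, at 1.14 ± 0.480 CPM per kb, rests on 100 windows, and its range overlapped that of MAGEA8, which was lowest at 0.366 ± 0.142. In HCT116, MAGEA3 was at 181 ± 37.5 CPM per kb (SD, n = 6) and the means of MAGEA12, MAGEA8, MAGEA1 and MAGEA6, at 0.102, 0.0931, 0.0903 and 0.0860, lay within the SD of each.

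The members lie in 2 groups along the X chromosome, MAGEA11, MAGEA9 and MAGEA8 in one and the remaining 7 members about 2224 to 3491 kb from the MAGEA11 start, so their neighbours were examined as a list chosen by position. Of 60 other annotated genes that start within 200 kb of a member, 17 were tested, 4 of these were called higher and 2 lower, and 11 were not called, while 7.42% of all genes tested were called higher and 6.49% lower. The neighbours' median log2 fold change was 0.33, against -0.07 over all genes tested. PNMA3 and PNMA5, near 0 in HCT116, passed the filter through their DNMT1 KO counts, so being tested meant being higher there. CSAG1, also low in HCT116, needed its DNMT1 KO counts to pass. The 4 calls higher are therefore no measure of the region as a whole. CSAG1, a cancer-testis antigen gene on the minus strand, starts 22 bases from the MAGEA12 start. CSAG1 was at 0.124 to 0.294 CPM in HCT116 and at 29.9, 40.4, 27.6 and 31.7 CPM in DNMT1 KO, with a log2 fold change of 7.28 (SE 0.30, edgeR adjusted p = 2.56e-09). It rose with MAGEA12, and no HCT116 library reached the DNMT1 KO level of either.

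MAGEA6-DT, a long noncoding RNA gene on the plus strand that starts 48 bases from the MAGEA6 start, was singled out after its values were seen. It was at 3.12 to 8.26 CPM in HCT116 and at 0.278, 0.160, 0.286 and 0.139 CPM in DNMT1 KO, with a log2 fold change of -4.63 (SE 0.45, edgeR adjusted p = 4.72e-06). MAGEA6-DT thus fell in DNMT1 KO while MAGEA6, read away from it on the other strand, rose. Of its 50-base windows, 91.7% occur once in hg38.

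Further from the members, PNMA5, 185168 bases from the MAGEA1 start, rose with a log2 fold change of 4.67 (SE 0.74, edgeR adjusted p = 0.000363). GABRE, a subunit gene of the GABA-A receptor 62185 bases from the MAGEA4 start, fell from 457 counts in HCT116 to 0 in DNMT1 KO, at least 84.9-fold lower against a floor of 3 counts over the group (edgeR adjusted p = 0.000361). Of these counts 260 came from HCT116 replicate 9, without which the bound, computed after the values were seen, was 49.2-fold. GABRE passed the filter through its HCT116 counts, so being tested meant being lower in DNMT1 KO. CSAG4, a pseudogene that shares 33 exon bases with MAGEA12, rose with a log2 fold change of 2.62 (SE 0.43, edgeR adjusted p = 0.000515). Among the 9 copies and interleaved genes of the family, 3 were tested. CSAG1, which needed its DNMT1 KO counts to pass the filter, and CSAG4 were called higher, while 7.42% of all genes tested were called higher. CSAG3 was not called, and 5.97% of its 50-base windows occur once in hg38, so its counts rest on a small part of it. For CSAG2, which was not tested, this share was 1.19%.

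**Figure D5:**
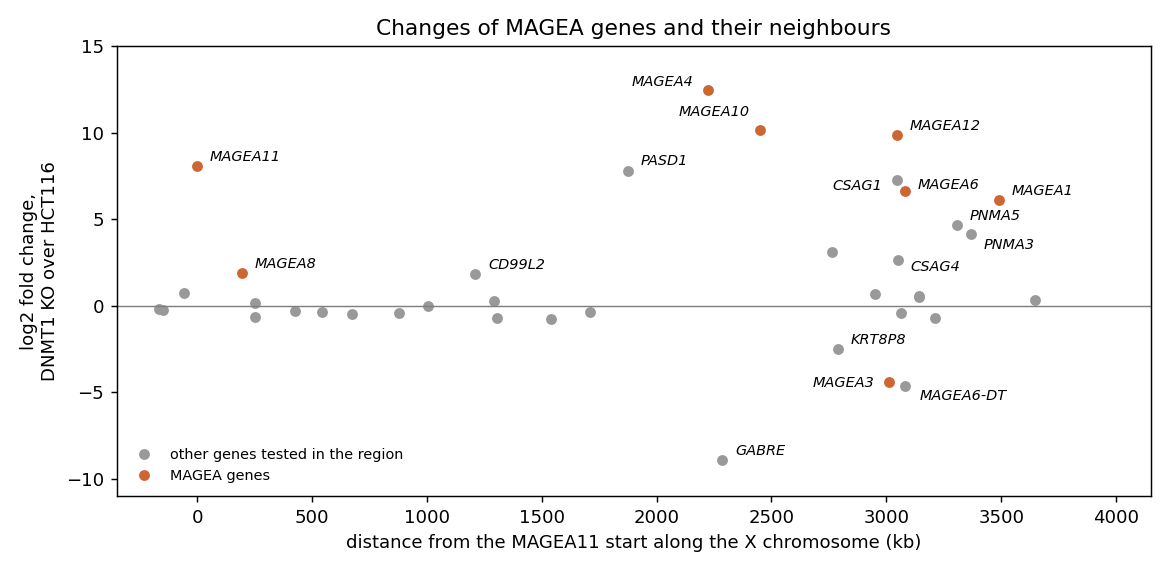
Log2 fold change of DNMT1 KO over HCT116 (y axis) against distance from the MAGEA11 start along the X chromosome (x axis, kb) for the MAGEA genes tested (orange) and the other genes tested in the region (grey), with called genes named. MAGEA3 at -4.38 lies between MAGEA genes that rose, and the fitted value of GABRE is no estimate of size because its DNMT1 KO counts are 0.

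The rest of the MAGE family was examined for comparison. Of 13 MAGEB and MAGEC genes, which are also cancer-testis antigens, 6 were tested. Of these 4 were called higher and 1 lower, against 7.42% and 6.49% of all genes tested. MAGEB2, the highest of the list, was at means of 367 CPM in HCT116 and 308 CPM in DNMT1 KO and was not called. MAGEB18, MAGEC1 and MAGEC2, the last at no more than 0.124 CPM in HCT116, passed the filter through their DNMT1 KO counts. For them, being tested meant being higher there. MAGEB18 and MAGEC1 had no count in HCT116 and reached 1.93 ± 1.13 and 0.416 ± 0.226 CPM in DNMT1 KO (SD, n = 4), at least 246-fold and 43.6-fold higher against the floor of 3 counts. MAGEB17 was at 1.04 ± 1.09 CPM in HCT116 and 0.0639 ± 0.0270 CPM in DNMT1 KO, a log2 fold change of -4.06 (SE 0.94, edgeR adjusted p = 0.00688). The MAGEB17 libraries of the groups overlapped, with a lowest HCT116 value of 0.0928 and a highest DNMT1 KO value of 0.104 CPM, and its log2 ratio was -0.88 for batch 1 and -2.48 for batch 2. Of 11 type II MAGE genes, which are expressed in many normal tissues, 5 were tested. MAGEH1 passed the filter through its DNMT1 KO counts. Of the 5 tested, 3 were called higher, against 7.42% of all genes tested. These were MAGEH1 with no count in HCT116 and 0.816 ± 0.475 CPM in DNMT1 KO, MAGEE1 with a log2 fold change of 2.05 (SE 0.28, edgeR adjusted p = 9.26e-05) and MAGED2 with 1.14 (SE 0.21, edgeR adjusted p = 0.00142).

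Genes of proteins known to bind MAGEA proteins, or to be modified through them, were examined next. Of 15 such genes 12 were tested, none was called higher and 1 was called lower, against 7.42% and 6.49% of all genes tested, and the list's median log2 fold change was -0.32. The gene called lower was HDAC1, a histone deacetylase bound by MAGEA1, which went from 251 ± 53.9 CPM to a mean of 101 CPM with a log2 fold change of -1.31 (SE 0.24, edgeR adjusted p = 0.00133). TRIM28, the ligase bound by MAGEA3 and MAGEA6, had a mean of 952 CPM in HCT116 and 924 CPM in DNMT1 KO and was not called.

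Of 11 genes for factors described at MAGEA promoters, 1 was called higher and 2 lower, against 7.42% and 6.49% of all genes tested. CTCFL, a germ-line paralogue of CTCF also known as BORIS, was at 0 to 0.302 CPM in HCT116 and rose to 16.6 ± 2.10 CPM in DNMT1 KO (SD, n = 4), with a log2 fold change of 6.88 (SE 0.65, edgeR adjusted p = 3.24e-06). It passed the filter on low counts through its DNMT1 KO counts. ETS1, whose protein binds ETS motifs, was lower in DNMT1 KO with a log2 fold change of -5.00 (SE 0.67, edgeR adjusted p = 8.52e-05). The other gene called lower was DNMT1. Whether CTCFL or ETS1 acts on a MAGEA gene in these cells was not tested.

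Markers of colon epithelium differed between the groups in both directions. Of 10 colon epithelial markers 7 were tested, and 4 were called lower and 1 higher, against 6.49% and 7.42% of all genes tested. The summed level of the 10 markers was 2520 to 6130 CPM in HCT116 and 645 to 1431 CPM in DNMT1 KO. EPCAM fell with a log2 fold change of -2.08 (SE 0.26, edgeR adjusted p = 3.98e-05) and CDH1 with one of -3.67 (SE 0.68, edgeR adjusted p = 0.00138), and KRT8 and KRT18 were the others called lower. VIL1, the gene of the brush-border protein villin, had 4 counts in HCT116 and 117 in DNMT1 KO, where it was at a mean of 0.609 CPM. It rose with a log2 fold change of 5.47 (SE 0.79, edgeR adjusted p = 0.000171). VIL1 passed the filter through its DNMT1 KO counts, so being tested meant being higher there. CDX2, an intestinal transcription factor gene, was at means of 30.7 and 36.0 CPM and was not called, and KRT20 had no count in any library. The part of these differences in the MAGEA levels was not tested. Of 14 germ cell markers 2 were tested and 1 was called higher, against 7.42% of all genes tested. The summed levels of the 14 markers, 0.334 to 2.09 CPM in HCT116 and 1.37 to 2.48 CPM in DNMT1 KO, overlapped. The gene called was NANOS3, with a log2 fold change of 2.78 (SE 0.55, edgeR adjusted p = 0.0023), and it passed the filter through its DNMT1 KO counts. NANOS2, with 4 counts in HCT116 and 32 in DNMT1 KO, and SOHLH1, with 2 and 46, had too few counts to be tested, and every DNMT1 KO library lay above every HCT116 library for both. ACR, the other marker tested, was at means of 0.663 CPM in HCT116 and 0.156 CPM in DNMT1 KO. Its log2 fold change was -1.99 and it was not called (edgeR adjusted p = 0.131). SYCP3, at means of 0.0749 CPM in HCT116 and 0.0773 CPM in DNMT1 KO, was not tested. TEX101, at 0.0469 and 0.0143 CPM, was not tested either. SYCP1, PRM1, PRM2 and TNP1, other markers of meiotic and later male germ cells, were at 0 in all libraries.

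The 5 genes outside the family whose log2(CPM + 0.5) was most like that of the summed members over the 10 libraries were ELMO1 and NRG1 (Pearson r = 0.99 each) and AKR1B1P7, SFRP1 and DLGAP1 (0.98 each). The 10 points fall into the 2 cell lines, which these values share with the members, so r describes that split together with the spread within each line.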

How the data were processed

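Libraries of polyadenylated RNA were prepared with a stranded kit and sequenced as read pairs. The authors trimmed reads with TrimGalore, aligned them to hg38 with bowtie2 (no spliced alignment), removed reads of mapping quality under 10 and counted exonic reads per gene with featureCounts. The submitters' processing notes give FastQC 0.11.4 and Trim Galore 0.4.1. The deposited tables, 1 per library, hold unnormalised counts. Tables of 3 further libraries without a sample in the list were not used. Of the 58884 genes, 58472 were found in GENCODE release 44, and 41967 have a symbol.

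DNMT1 KO (4 libraries) was compared with HCT116 (6) by edgeR 4.0.16 under R 4.3.3, using TMM factors, default filterByExpr and the two-sided quasi-likelihood F test (glmQLFTest) on group without covariates. Benjamini-Hochberg adjustment covered all 19279 genes that passed the filter. An SE was taken as the absolute log2 fold change over the square root of F. CPM uses the totals of the tested genes times the TMM factors. Exon windows, coding sequences (longest annotated per gene, aligned with Biopython 1.88) and promoters were read from hg38 and the RefSeq promoter table. The edgeR fit was tested on simulated counts. The members and gene lists were chosen with earlier results of these data known. All members were named, and of other lists and neighbours the called genes with the largest changes, up to 3, and markers at any level. MAGEA6-DT, MAGEA9B, MAGEA4-AS1, ENSG00000266560, TRIM28, MAGEB2, PNMA3, MAGEC2, CSAG2 and CSAG3 were added after their values were seen. CSAG4 and DNMT1 are named from their own lists. Alternatives were other size factors, filters, tests (DESeq2 1.42.0, likelihood ratio), batch terms, a replicate block, halved counts, summed copies and leaving out each replicate. Bounds for genes without a count in a group use a floor of 3 counts over that group. Ratios with a counting interval divide the pooled counts of each group by its pooled scaled total, not mean CPM by mean CPM.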

Additional observations from a re-analysis of the deposited data

Results flagged for a closer look

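MAGEA8 in HCT116 replicate 9 stood apart from the other HCT116 libraries. It was at 0.558 CPM there, against 0.0535 to 0.223 CPM in the other 5, and the gap to the nearest of them was 0.664 of the group's whole range. Of the 19 groups of values examined in this way, 1 stood out, and chance alone marks about 0.05 of such groups. Without this library the MAGEA8 log2 fold change was 2.51 (edgeR adjusted p = 0.00479), against 1.89 (edgeR adjusted p = 0.0422) with it. No cause was tested.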

How the results depend on the processing

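Over the 21 alternatives, 6 to 8 members were called higher and 1 lower, and no member changed direction. Leaving out each replicate in turn gave 6 to 7 members higher and 1 lower, 1214 to 1587 genes higher and 987 to 1250 genes lower over the whole table, and DNMT1 log2 fold changes of -3.05 to -2.75. The call of MAGEA8 was lost in 9 of these 10 fits, at edgeR adjusted p-values of 0.0521 to 0.131. Without a filter on low counts, MAGEA9 was also called, and a minimum of 1 CPM in 4 libraries left MAGEA8 untested. Summing near-identical genes left MAGEA6 without a value of its own. Over the whole table the calls ranged from 968 higher (the 1 CPM minimum) to 1965 (no filter), and from 956 lower (library totals alone) to 1547 (no filter). Library totals alone moved the median log2 fold change of all genes from -0.07 to 0.14 and the share of calls that were higher from 53.4% to 66.3%, and left MAGEA3 at -4.17.

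Deviations of same-numbered libraries from their group means correlated at 0.55, -0.27 and 0.37. Such libraries also share a batch and differently numbered ones were not compared, so whether the numbers pair the libraries was not settled. Replicates 1 to 3 fitted with the replicate block gave 7 members higher and 1 lower, 1232 genes higher and 1235 lower, and a DNMT1 log2 fold change of -2.72 (edgeR adjusted p = 0.00282). Under that block MAGEA1 was at 11.97, since its HCT116 counts lie in batch 4. With batch as a term and all libraries the fitted values of MAGEA1, MAGEA4, MAGEA8, MAGEA10 and MAGEA12 were 12.16, 15.09, 3.60, 12.66 and 12.92. Fitted values of members at or near 0 in HCT116 rest on few counts there.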
